A study of Mus musculus with 3 samples.

Results

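Among the germ cells sorted from mouse testis, 281 of 5023 were picked for RNA of Sertoli cells, the somatic nurse cells of the seminiferous tubule. Most of these 281 cells also carried the RNA of condensing spermatids. They were chosen by their own values. The natural log values of 12 sets of 3 genes (trios A to L, each marking a stage or cell type) were averaged in each cell and z-scored over all cells, and a cell was kept if its highest trio was trio K, made of Defb19, Cst9 and Cst12. Such cells are called K cells here, and the highest of the other 11 trios is called the next trio of a cell. The 3 rule genes are therefore high in K cells by choice, and their values are given as a description.

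Sertoli cells line the tubule, enclose every germ cell stage in folds of their membrane, seal the blood-testis barrier with tight junctions, and supply lactate and secreted proteins. Condensing spermatids replace histones with transition proteins and then protamines, and hold large stores of protamine mRNA while transcription shuts down. They lie deep in crypts of the Sertoli cell, and the Sertoli cell takes up their cast-off cytoplasm, the residual body, at release.

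The study asked what knockdown of the long non-coding RNA Gm4665 does to germ cells in the living testis of ICR mice, which were 21 days old before the injection. Each mouse received AAV9 vectors that carry a short hairpin RNA with RFP, a red fluorescent marker: one testis got the control hairpin and the contralateral testis a Gm4665 hairpin. After depletion of somatic cells, RFP-positive germ cells were sorted by flow cytometry, and their RNA was sequenced in droplets with the 10x 3' kit. The 3 libraries were the control hairpin (shCtrl) and 2 Gm4665 hairpins, called hairpin 1 and hairpin 2, all from the same strain, vector type and sort. Cells of 3 mice went into each library, per the labels. With 1 library per group there is no replicate spread, so no test was made between groups, and all intervals cover counting error only. The column names that tell hairpin 1 from hairpin 2 were matched by their last digit alone.

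Values given in threes follow the order control, hairpin 1, hairpin 2. There were 1418, 1732 and 1873 cells, and the median cell had 19366, 14667.5 and 16518 unique molecular identifiers (UMIs, counted RNA molecules). K cells held about 1957870, 1060780 and 1681310 UMIs in all. The libraries shared 18 cell barcodes, and 2 K cells carried one of them. A doublet caller marked 17 cells (0.338% of all), too few for a working call, and 0 of them were K cells.

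Cst9 and Cst12 encode cystatins, a family of cysteine protease inhibitors, and Defb19 and the nearby Defb36 encode beta-defensins, small cationic peptides. In the GENCODE annotation of mm10 (GRCm38), Cst12 lay at chr2:148789361-148793546 and Cst9 at chr2:148835147-148838738, both on the plus strand. Defb19 lay at chr2:152576086-152580312 on the minus strand and Defb36 at chr2:152604327-152612729 on the plus strand. The promoters of the 3 genes with an entry in the RefSeq table are shown because these genes were high together in the same cells. Each runs from 250 bases before to 50 bases after the gene start on the plus strand of GRCm38.p6, at chr2:148834897-148835196 for Cst9, chr2:148789115-148789414 for Cst12 and chr2:152604077-152604376 for Defb36. Capitals mark the letters GATAA, the core of the GATA factor motif.

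Cst9: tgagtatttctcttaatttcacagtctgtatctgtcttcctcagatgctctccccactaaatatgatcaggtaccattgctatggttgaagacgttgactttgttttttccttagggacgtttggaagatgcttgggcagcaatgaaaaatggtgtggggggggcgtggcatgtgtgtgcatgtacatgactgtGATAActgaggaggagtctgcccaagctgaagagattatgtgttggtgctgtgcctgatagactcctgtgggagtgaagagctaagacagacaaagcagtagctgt
Cst12: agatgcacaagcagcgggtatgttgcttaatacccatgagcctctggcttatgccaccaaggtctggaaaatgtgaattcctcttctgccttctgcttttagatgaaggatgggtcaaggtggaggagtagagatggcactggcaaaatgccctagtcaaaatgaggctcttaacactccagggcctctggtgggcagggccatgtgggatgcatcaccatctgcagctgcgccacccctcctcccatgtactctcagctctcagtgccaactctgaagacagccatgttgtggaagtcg
Defb36: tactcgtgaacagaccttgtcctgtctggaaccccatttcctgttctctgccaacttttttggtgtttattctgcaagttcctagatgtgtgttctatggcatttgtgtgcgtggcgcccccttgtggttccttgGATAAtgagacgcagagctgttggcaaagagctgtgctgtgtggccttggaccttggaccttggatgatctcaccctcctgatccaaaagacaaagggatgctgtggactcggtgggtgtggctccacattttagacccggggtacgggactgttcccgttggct

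These windows were searched on both strands for AACAAT (SOX factors), GATAA and AAGGTCA (NR5A1). GATAA occurred once in the Cst9 window and once in the Defb36 window, and the other motifs had 0 matches in all 3. Among all 32851 promoters of the table, 25.4% held GATAA, 10.7% held AACAAT and 4.72% held AAGGTCA. Among the 81 promoters found for 65 of the 79 genes (1.26% of 6291) that were at least 2-fold higher in K cells than in other cells of the same next trio in all 3 libraries, the shares were 22.2%, 8.64% and 4.94%.

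The class was graded rather than sharp in its rule genes. The summed UMIs of Defb19, Cst9 and Cst12 had a lowest, median and highest value of 2, 12 and 818 per control K cell, of 2, 9 and 54 per hairpin 1 K cell and of 2, 9 and 469 per hairpin 2 K cell. In all, 35 K cells had 1 to 4 such UMIs, 212 had 5 to 19 and 34 had 20 or more. The 5 cells just inside the rule had K above their next trio by 0.013 to 0.025 z units, and the 5 just outside it fell short by 0.003 to 0.027 z units. The K cells held 64.8%, 50.3% and 47.7% of all UMIs of the 3 genes, so a large part lay in other cells. Of 4742 other cells, 2891 had 0 such UMIs, but 197 (4.15%) had 5 or more. One of the 5 cells just outside the rule had 12. Cells outside the class can thus hold as many rule gene UMIs as K cells.

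Only 3 K cells stood far above the rest, with over 2% of their UMIs in the rule genes, a limit set after the values were seen. A control cell had 818 rule gene UMIs (3.08% of its RNA), a hairpin 2 cell had 469 (2.87%) and another control cell had 798 (2.42%), while the next cell had 100 (0.90%). These 3 leading cells held 2085 of the 5465 rule gene UMIs of all K cells, or 38.2%. They carried a broad Sertoli profile. Of 29 Sertoli markers that exclude the rule genes, they had a UMI of 18 to 25, against a median of 5 (0 to 20) in the other 278 K cells. Cst8 was left out of this list after its values were seen, because spermatids hold it.

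The leading cells had 13 UMIs of Sox9, the transcription factor that sets Sertoli cell fate, and the other 278 K cells had 0, which allows up to 3 UMIs. Wt1, another factor of Sertoli cell identity, had 22 UMIs in the leading cells and 23 in the others. Late spermatid genes (18 genes, such as the protamines Prm1 and Prm2) made up 2.96%, 5.79% and 2.97% of the UMIs of these cells, in the order given above. For comparison, cells of the leukocyte trio L, which should lack these genes, had medians of 2.48%, 2.61% and 1.79%. Mitochondrial transcripts made up 7.47%, 16.2% and 11.7% of the UMIs of the leading cells, in the same order.

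The other K cells were of another kind. The late spermatid genes made up a median of 24.4%, 22.7% and 23.2% of the UMIs of K cells, close to the 26.5%, 25.6% and 27.3% of cells of trio J, the latest condensing spermatids. At least 10% of UMIs were late spermatid RNA in 232 of 281 K cells, and 222 of these 232 also had a UMI of the 29 Sertoli markers. A UMI of these markers was also present in 739 of 1399 cells of trios I and J (52.8%), so a single one does not mark a cell. By late spermatid RNA, the name of the class held for most K cells, but not for the 3 leading cells or for most of the 23 K cells whose next trio was B (early prophase spermatocytes), where late spermatid RNA had a median of 3.60%.

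**Figure D1:**
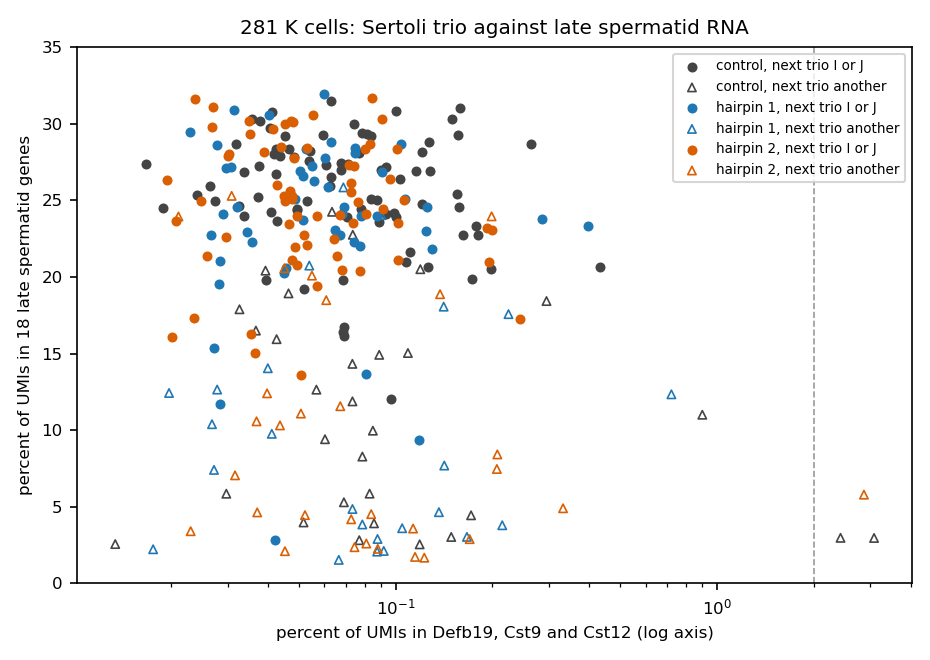
Each point is 1 of 281 K cells, with the percent of its UMIs in the 3 rule genes on a log axis against the percent in 18 late spermatid genes; filled circles have next trio I or J, open triangles another one, and the dashed line marks 2%. Most cells lie at a low share of rule genes and above 10% late spermatid RNA, and the 3 leading cells lie to the right of the line at 2.96% to 5.79%.

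By their next trio, 105 K cells resembled the spermatids of trio I (Cstl1, Tex37 and Prss58) and 92 those of trio J (Klk1b3, Glul and Bpifa3), together 197 of 281 or 70.1%. Another 23 had B as next trio, 17 had H (elongating spermatids) and 13 had E (round spermatids). Among all cells of a given next trio, K cells made up 14.4% for I (exact binomial 95% interval 12 to 17.2) and 10.6% for J (8.63 to 12.8). The share was 5.93% for B (3.79 to 8.76), 4.58% for E (2.46 to 7.70) and 4.24% for H (2.49 to 6.70), and these 3 intervals overlap. It was 2.32% for A, the spermatogonia, 1.65% for D, 1.40% for F, 1.11% for G and 0.935% for C, the late pachytene to diplotene spermatocytes. The intervals of I and J overlap each other, and so do those of J and B, while that of I lies above those of all trios but J. A K cell must have a K z-score above that of its next trio, so the rule itself sets a bar that differs by trio. The shares by next trio, with their intervals, are therefore a description and show no preference for a stage. These shares also pool the libraries, which differ in their mix of stages. With hairpin 1 the shares of I, J and B were 9.0%, 9.05% and 8.75%, so the order of I above B was not seen there. Of 296 cells with leukocyte trio L as next trio, 1 was a K cell (0.338%).

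**Figure D2:**
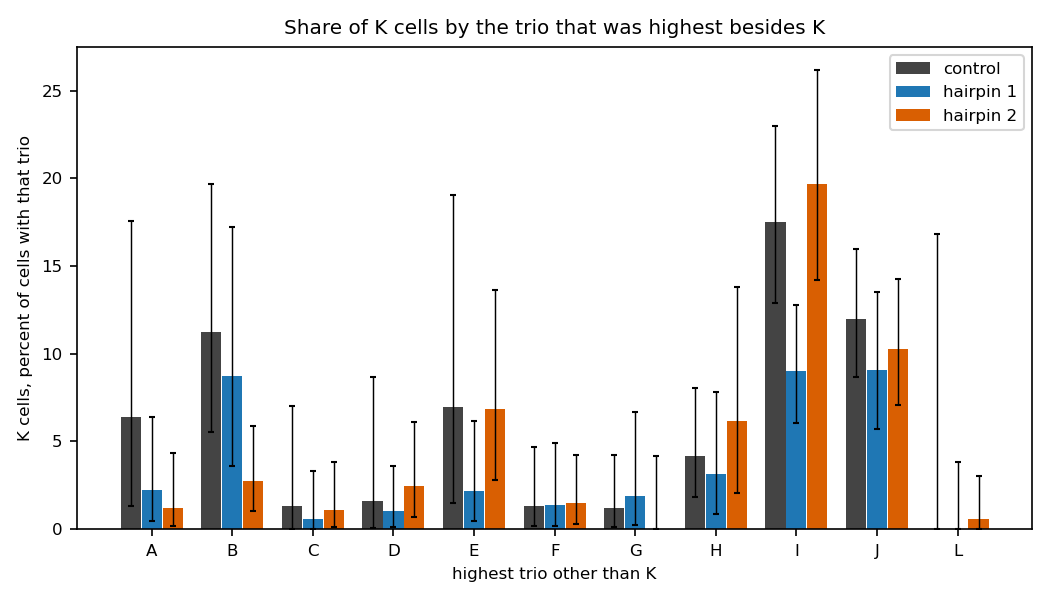
Bars give the share of K cells among all cells with the same highest other trio (A to J and L) in each library, in percent, and lines give exact binomial 95% intervals. For trio I the bars stand at 17.5%, 9.0% and 19.7%, and for trio C the highest bar is at 1.3%.

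K cells with next trio J held fewer UMIs than J cells. They had medians of 13797, 14238 and 15618 UMIs, against 21952, 16520 and 20724 in J cells. K cells with next trio I had 14409, 11711.5 and 14851 against 17670, 16581 and 14595 in I cells, fewer in 2 of the 3 libraries. The mitochondrial share was higher, with medians of 0.272%, 0.147% and 0.166% for next trio J against 0.053%, 0.064% and 0.081% in J cells. The part of depth and of mitochondrial RNA in the results that follow was not tested.

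To see what K cells held beyond their stage, the K cells of each library were set against the other cells of the same next trio in that library, weighted to the same mix. A gene is called raised here if it was at least 2-fold higher in all 3 libraries. Of 6410 genes compared, 117 (1.83%) were raised and 0 (0.0%) were at least 2-fold lower. Without the 3 leading cells, 79 of 6291 genes (1.26%) were raised, all of them among the 117, and again 0 (0.0%) were lower. Next to cells matched for stage, K cells thus showed a limited set of raised genes. The statements from here to the hairpin comparison leave out the 3 leading cells, unless they are named.

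The 29 Sertoli markers together stood at 761, 778 and 625 CPM in these 278 cells, against 84.8, 64.4 and 87.7 CPM in matched cells. Without any filter on low values, 17 of all 29 were at least 2-fold higher in all 3 libraries, 21 were higher by any amount and 2 were lower, with a median log2 ratio of 2.23, 1.73 and 1.66. With the filter, 14 were compared and 13 raised, but only 1 of the 14, Ctsl, reached a mean of 10 CPM in matched cells. The others passed through their level in K cells and so had to be higher there, and their count and median are no support. The median over all genes compared was -0.01, -0.05 and -0.01. The 15 markers below the filter include the follicle-stimulating hormone receptor gene Fshr with 1 UMI in all K cells.

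Transport and secretion genes are described first. Clu, which encodes the secreted chaperone clusterin, stood at 113, 113 and 73.3 CPM (UMIs scaled to a sum of 1000000 over the cells of a group in a library) in K cells, against 9.53, 4.59 and 8.40 CPM in matched cells. Ctsl, the lysosomal protease cathepsin L that Sertoli cells also secrete, stood at 114, 156 and 82.9 CPM against 14.1, 11.7 and 10.9 CPM. Aard, a gene of Sertoli cells named for its alanine- and arginine-rich protein, stood at 121, 99.0 and 96.7 CPM against 10.2, 5.98 and 9.74 CPM. In each of the 3 genes, every library was higher in K cells than in matched cells, with no overlap between the 2 kinds of cells. Of the list of Sertoli transport and secretion genes, 7 were compared and 6 raised, which again passed the filter mainly through K cells, among them Sparc, a secreted matrix protein, with log2 ratios of 3.33, 4.02 and 2.60. Interferon and antigen presentation genes (0 of 5 compared), apoptosis genes (0 of 5) and niche signals to germ cells (0 of 1) had none raised. With 1.26% of all genes raised, counts over so few genes do not show that a list was level. The interferon and antigen presentation genes had median log2 ratios of 0.98, 1.96 and 0.20, and the apoptosis genes had -0.01, -0.11 and 0.01.

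Hormone signalling was represented by Amhr2 and Inha. Amhr2, the receptor of anti-Müllerian hormone, stood at 47.9, 50.9 and 25.8 CPM against 4.60, 2.82 and 3.81 CPM in matched cells, higher in K cells in each library. Inha, the alpha subunit of the pituitary-acting hormone inhibin, had log2 ratios of 2.98, 3.56 and 2.60. These were the only 2 compared of 14 genes on the list of Sertoli hormones and receptors, and both passed the filter only through their level in K cells. Among the transcription factors, the homeobox gene Rhox8 was raised (log2 ratios 2.39, 3.80 and 3.24) and Lhx2 was not (0.30, 0.30 and 0.05).

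Most structural genes of the Sertoli cell that were compared were not raised, but many on the lists were not compared. Of the barrier and junction genes, 6 of 17 measured were compared. Cldn11, the claudin of the blood-testis barrier, was raised (log2 ratios 3.14, 3.62 and 3.04) as 1 of 6 barrier and junction genes compared, while Tjp1, a tight junction scaffold, had ratios of 0.13, 0.24 and 0.29. Espn, the actin bundler of the ectoplasmic specialization, the junction that holds spermatid heads, was raised. It was 1 of 4 genes compared on the list that holds that structure, of 18 measured. The intermediate filament gene Vim was raised, and 2 of 7 cytoskeleton genes were in all.

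Not all defensins and cystatins were raised. Leaving out the 3 rule genes, 8 members of that list were compared, and 3 were raised: Defb36, Defb45 and Cst3. Defb36 and Defb45 had a mean below 10 CPM in matched cells. They passed the filter only through K cells and so had to be higher there, and the count of 3 is no support. Defb36 stood at 106, 103 and 113 CPM in the control, hairpin 1 and hairpin 2 K cells against 8.60, 6.79 and 10.6 CPM in matched cells. Cst8, Cst13 and Cstl1, which lie in the same cystatin cluster as Cst9 and Cst12, were among those not raised. Cstl1 is a gene of trio I, by which cells were matched, so its ratio is in part set by the matching. Cst8 stood at 1159, 899 and 975 CPM in all K cells, against 1127, 904 and 962 CPM in matched cells. In each library Cst8 was thus near the level of matched cells.

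**Figure D3:**
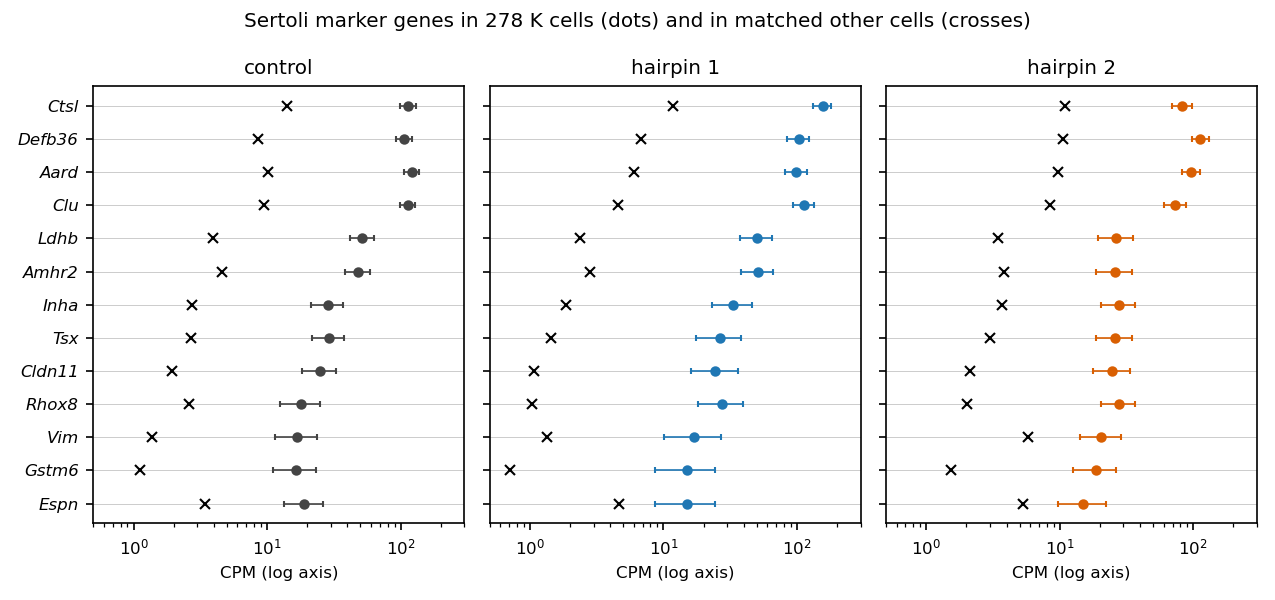
CPM (log axis) of 13 Sertoli markers in the 278 K cells (dots, with exact Poisson 95% intervals) and in other cells of the same next trio (crosses), 1 panel per library. The genes plotted are those called raised, so every dot lies to the right of its cross by choice. On the log2(CPM + 1) scale, the ratios run from 1.34 for Espn with hairpin 2 to 4.35 for Clu with hairpin 1.

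Of the 79 raised genes, 53 were on none of the lists used, and those named here were chosen after their values were seen. Of 11 genes whose symbol starts with Gst and that passed the filter in at least 1 of the comparisons made, 5 were raised. These were Gstm1, Gstm2, Gstm6, Gstm7 and Gsta4, glutathione S-transferases, which conjugate glutathione to reactive compounds. All raised genes named in this paragraph had a mean below 10 CPM in matched cells, such as Gstm6 at 1.18 CPM. They passed the filter only through K cells and so had to be higher there, and their count is no support. Gstm2 stood at 45.5, 38.7 and 31.5 CPM in all K cells, with log2 ratios of 3.15, 3.89 and 2.98 without the leading cells. Gatm and Gamt, the 2 enzymes of creatine synthesis, were both raised (3.33, 2.89 and 3.06 for Gatm, and 3.09, 2.85 and 2.51 for Gamt). Ldhb, the heart-type lactate dehydrogenase subunit, had ratios of 3.42, 3.93 and 2.63, while the list of lactate and lipid metabolism genes had 1 raised of 11 compared. Ldhb shares a stretch of 109 bases at 99.1% identity with Gm5514, so part of its count is uncertain. Hspb1, a small heat shock protein, was raised (3.19, 3.23 and 2.69) as 1 of 7 immediate-early and heat shock genes compared. Gm9112 (3.42, 3.50 and 3.00), 1700011M02Rik (3.30, 3.58 and 2.91) and Wfdc10, which encodes a protein with a whey acidic protein fold (3.14, 3.43 and 2.80), were raised to a like extent.

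Lysosomal genes were raised in part, 4 of 11 compared, with median ratios of 0.39, 1.25 and 0.73. Psap, the precursor of the saposins that help break down lipids, had ratios of 1.59, 1.94 and 1.29, and Laptm4b, a lysosomal membrane protein, had 1.75, 1.59 and 1.34. Lamp1, the main lysosomal membrane glycoprotein, had 0.07, -0.04 and 0.26. Of 7 genes compared for the uptake of residual bodies, 0 were raised, with median ratios of 0.09, 0.07 and 0.26.

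The spermatid programme was near the level of cells matched for stage. Prm1, the first protamine, stood at 82110, 73818 and 82775 CPM in all K cells, against 76853, 74725 and 80813 CPM in matched cells. Of 18 late spermatid genes, 18 fibrous sheath, outer dense fibre and sperm mitochondria genes, 14 genes of spermatid cytoplasm and 8 protamine and transition protein genes, 0 were raised and 0 lower. The median ratios of these lists lay between -0.07 and 0.11 in each library. Round spermatid (13 compared), pachytene (12) and early prophase genes (7) had 0 raised as well. Cells were matched by next trio, and some members of these lists are trio genes. Klk1b3, Glul, Bpifa3, Tex37 and Prss58 of the cytoplasm list are among them. Ratios near 0 are thus in part set by the matching.

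**Figure D4:**
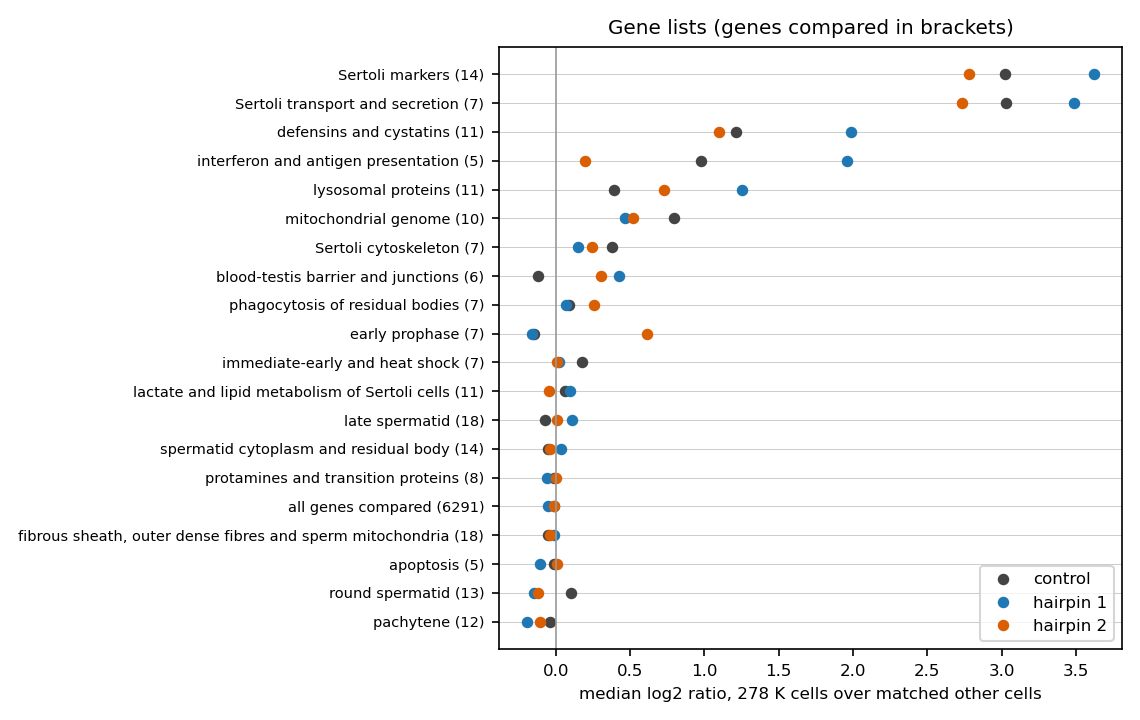
Median log2 ratio of 278 K cells over matched other cells for each list with at least 5 genes compared, 1 point per library. Sertoli markers stand at 2.78 to 3.62 and transport and secretion genes beside them, mostly over members that passed the filter through K cells. The spermatid lists, abundant in both kinds of cells, lie near 0, in part through the matching.

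Markers of other cell types summed to low levels in K cells, leading cells included, but some lists stood above matched cells. Of 7 Leydig markers, 4 had 0 UMIs in K cells, and the list summed to 1.53, 1.89 and 0.595 CPM. The 6 endothelial markers summed to 7.15, 5.66 and 11.3 CPM and the 8 macrophage markers to 34.7, 33.0 and 19 CPM, nearly all of it C1qb, which was as high in matched cells. The 6 peritubular myoid markers summed to 35.2, 16 and 11.9 CPM. Of these only Myl9, a myosin light chain, was compared, and it was raised. The lymphocyte and plasma cell list summed to 5.11, 20.7 and 146 CPM and moved with the library. The mesenchymal list summed to 20.4, 49.0 and 3.57 CPM and the red blood cell list to 11.7, 9.43 and 7.14 CPM. Mitochondrially encoded genes had median ratios of 0.80, 0.46 and 0.52, and 0 of 10 were raised. The part of these cell types in the results was not tested.

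Single cells showed the same mixture. With every cell thinned to 7000 UMIs, Aard was detected in 57.7%, 49.3% and 47.4% of K cells. The same share was 4.76%, 3.79% and 7.75% in J cells and 5%, 3.19% and 1.10% in the leukocyte-trio cells, which should lack Aard. Without thinning it was 75.7%, 64.4% and 64.9% in K cells, 17.3%, 10.4% and 16.6% in J cells and 5%, 3.19% and 3.31% in L cells. L cells had medians of 14002, 9700 and 13294 UMIs. Of the 281 K cells, 11 had 0 UMIs of all 29 Sertoli markers, against 660 of 1399 cells of trios I and J. The 29 markers took a median of 0.059%, 0.058% and 0.049% of the UMIs of K cells and 0.041%, 0.041% and 0.036% of those of L cells, so the list total alone does not set K cells apart from L cells. In L cells Vim, which leukocytes also express, stood at 460, 558 and 460 CPM. Across the 278 K cells, the share of UMIs in the rule genes and the share in the 29 Sertoli markers had a Spearman correlation of 0.66, given as a description, since cells share libraries and depth. The rule genes and late spermatid share had one of -0.16.

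The proportions of the Sertoli genes to each other were compared between the leading cells and the others. For the 13 raised Sertoli markers, the level in the 278 K cells above that in matched cells was 2.55% to 3.89% of the level in the 3 leading cells, with a median of 3.04%. These 13 were chosen for being raised in the same 278 cells, so this range is no support for a fixed proportion. Markers left out went both ways. Mro had 5 UMIs in the leading cells and 40 in the others, and Tjp1 had 3 and 54. Sox9 had 13 and 0 and Amh 6 and 1, while Aard, one of the 13, had 215 and 495. For Aard, 107 CPM in the 278 cells against 9.06 CPM in matched cells and 2834 CPM in the leading cells gave 3.46%. For Cldn11, 24.7 CPM against 1.80 and 896 CPM gave 2.55%. Per 100 UMIs of Defb36, the leading cells had 103 UMIs of Aard (90.01 to 118, exact Poisson 95% interval of the count) and the others 99.2 (90.7 to 108). Tsx, an X-linked testis gene, had 26.4 (19.9 to 34.4) and 25.3 (21.0 to 30.1). Amhr2 had 50.5 (41.3 to 61.1) and 37.7 (32.5 to 43.5), and Cldn11 had 32.7 (25.4 to 41.5) and 22.8 (18.8 to 27.4). The cells of trios I and J had 96.4 for Aard, 27.7 for Tsx, 34.5 for Amhr2 and 60.1 for Ctsl. Of the 10 genes set against Defb36, the intervals of 3 did not overlap between leading and other K cells. These intervals leave out the counting error of Defb36 itself and the spread between cells, and those of Ctsl nearly touch. Ctsl had 128 (113.43 to 145) in the leading cells and 104 (95.3 to 113.35) in the others, Wfdc10 had 108 (94.5 to 123) in the leading cells and 49.5 (43.5 to 56.1) in the others, and Defb45 had 46.2 (37.4 to 56.4) and 22.4 (18.5 to 27.0).

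The most abundant Sertoli genes, already called raised, were also compared by stage. Among K cells with next trio I, J and B, Defb36 had log2 ratios of 3.43, 3.46 and 3.28 over other cells of that trio, with 215, 161 and 36 UMIs behind them, and Aard had 3.57, 3.23 and 2.98. Clu had 2.94, 3.05 and 4.04, and Ctsl had 3.14, 3.90 and 2.45. Prm1 had 0.04, -0.03 and 0.73. The B group held 23 cells, 1 of them a leading cell left out here, and the libraries were pooled, so these ratios have no spread over libraries.

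The share of K cells differed between the libraries. K cells made up 111 of 1418 control cells (7.83%, exact binomial 95% interval 6.48 to 9.35), 73 of 1732 hairpin 1 cells (4.21%, 3.32 to 5.27) and 97 of 1873 hairpin 2 cells (5.18%, 4.22 to 6.28). The control was above both hairpin libraries with no overlap of the intervals, and the hairpin libraries overlapped. With z-scores taken within each library, the shares were 6.77% (5.52 to 8.21), 5.48% (4.46 to 6.66) and 5.18% (4.22 to 6.28), and all 3 intervals overlapped. The libraries also differed in their spermatid content and in the level of the rule genes outside K cells, which was 44.5, 20.2 and 39.5 CPM. Among cells whose next trio was I or J, K cells made up 14.3% (11.5 to 17.4), 9.02% (6.75 to 11.8) and 13.8% (10.9 to 17.2). There, too, all 3 intervals overlapped, that of hairpin 1 only narrowly with that of the control. An effect of the hairpins on the share cannot be told apart from other differences between the 3 libraries.

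Gm4665 itself was lower in K cells of both hairpin libraries. It stood at 468, 87.7 and 170 CPM, log2 folds of -2.40 and -1.46. Matched other cells stood at 418, 95.4 and 174 CPM, so in each library K cells were near other cells of their stage.

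The rule genes and Sertoli markers were lower in the hairpin libraries, and most of the difference lay in the leading cells. Defb19 stood at 818, 386 and 495 CPM in all K cells, and at 399, 386 and 358 CPM without the 3 leading cells, 2 of which were in the control. Cst12 stood at 373, 154 and 205 CPM, and at 205, 154 and 153 CPM without them. Clu stood at 205, 113 and 94.0 CPM, and at 113, 113 and 73.3 CPM without them. The 29 Sertoli markers summed to 1418, 778 and 767 CPM, and to 761, 778 and 625 CPM without them. In terms of folds, their median log2 fold over the compared genes was -0.85 with hairpin 1 and -0.70 with hairpin 2 in all K cells, and -0.00 and -0.10 without the leading cells. The leading cells, 2 in the control and 1 with hairpin 2, thus set most of these differences, and both folds share the 1 control library.

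**Figure D5:**
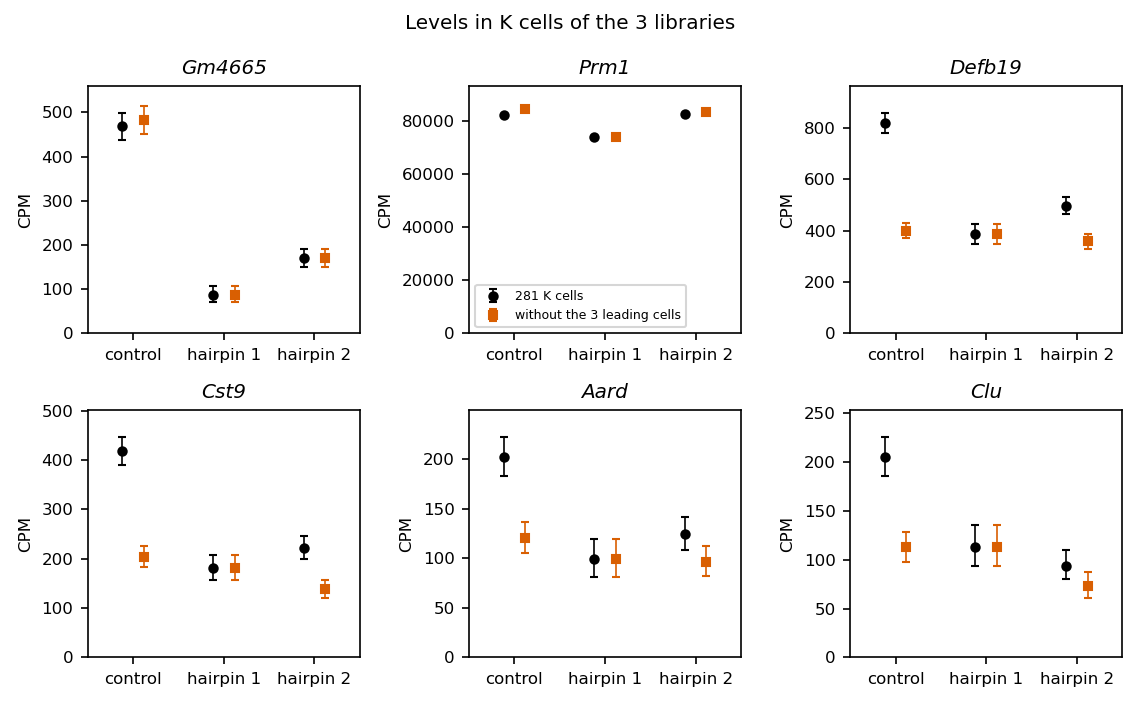
CPM of 6 genes in K cells of the 3 libraries, with exact Poisson 95% intervals, for all 281 K cells (circles) and without the 3 leading cells (squares). Gm4665 stands at 468 in the control and 87.7 and 170 CPM with the hairpins with all K cells, whereas Defb19 in the control drops from 818 to 399 CPM.

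Over all genes, 80 of 6196 compared (1.29%) were at least 2-fold higher with both hairpins in K cells, and 30 (0.484%) were at least 2-fold lower. Scaled by TMM factors, 42 genes were higher and 47 lower, since these factors move the median log2 fold of all genes from 0.08 to -0.08 with hairpin 1 and from 0.09 to 0.02 with hairpin 2. Without the 3 leading cells, 109 were higher and 17 lower, of which 73 and 15 were the same genes. Of 18 late spermatid genes, 0 changed in either direction, and of 15 compared among the 29 Sertoli markers, Espn was lower and 0 were higher. Without the leading cells Espn had log2 folds of -0.31 and -0.32, and 0 of the markers were lower. Of the 79 genes raised over matched cells, 7 were among the 30 lower genes and 0 among the 80 higher ones. The 79 were called without the leading cells, but the 30 and 80 with them. As most of the leading cells were in the control, these overlaps are not read as an effect of the hairpins.

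Several of the 8 lowest genes, ranked by the smaller fold of both hairpins, rested on few control cells. Ccl2, a chemokine that attracts monocytes, stood at 76.1 CPM in the control and had 0 UMIs in both hairpin libraries, at least 26.9-fold lower with each against a floor of 3 UMIs, but all 149 UMIs came from 1 cell. Outside the class it stood at 0.18, 10.5 and 1.47 CPM, highest with hairpin 1. Cxcl1, a chemokine for neutrophils, had 60 UMIs in 3 control cells and 0 elsewhere. Gadd45g, a stress-response gene, stood at 31.2, 3.77 and 4.16 CPM, and at 0.527, 3.77 and 4.20 CPM without the leading cells, where its log2 folds turned to 1.64 and 1.77. Gm14226 (28.6, 2.83 and 6.54 CPM, with 97.3% identity to Gm12915 over 296 bases, so its count is uncertain) and Cpe, a peptide-processing carboxypeptidase (33.2, 9.43 and 10.7 CPM), fell below 10 CPM in every library without them. Serpina5, a serine protease inhibitor, stood at 24, 1.89 and 6.54 CPM, and at 10.5, 1.89 and 3.60 CPM without the leading cells.

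Gm13976 and Aacs were lower in many cells. Gm13976, a long intergenic non-coding RNA, stood at 26, 3.77 and 1.78 CPM in K cells and at 26.7, 1.67 and 3.32 CPM in J cells. Aacs, which activates acetoacetate for lipid synthesis, stood at 25.5, 1.89 and 4.76 CPM in K cells and at 30.6, 2.39 and 1.27 CPM in J cells. For both genes the control was above the hairpin libraries in K cells and in J cells alike.

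The 8 highest genes were also higher in both hairpin libraries over all cells outside the class. Atp6v1e2, a testis subunit of the proton pump that acidifies the acrosome, stood at 11.2, 54.7 and 73.2 CPM in K cells and at 7.97, 42.2 and 52.2 CPM in J cells. Tpm3-rs7 stood at 0.511, 21.7 and 12.5 CPM, with 1 control UMI and a stretch of 98.5% identity to Tpm3 that makes its count uncertain. Jchain, the joining chain of antibodies, stood at 0.511, 11.3 and 83.9 CPM in K cells and at 6.03, 535 and 958 CPM over all other cells of the libraries. Of the remaining 5, Prss56, a serine protease gene, stood at 8.68, 26.4 and 28.0 CPM and B2m, the light chain of MHC class I, at 13.3, 47.1 and 43.4 CPM, with 31 of its 149 UMIs in 1 hairpin 1 cell. In J cells B2m stood at 4.67, 3.58 and 14.4 CPM, not higher with hairpin 1. Ptpn14, Glmn and Leprotl1 had log2 folds of 1.57 to 2.26. The hairpin libraries held more cells of the leukocyte trio, 94 and 181 against 20 in the control, and their part in the Jchain and B2m values was not tested.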

How the data were processed

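The values used were the deposited table, in which the authors gave natural log (ln) values: each cell was scaled to a sum of 10000 and 1 was added before the log. Per the submitters' processing notes, Cell Ranger 1.3.1, Seurat 2.0.0 and the mm10 genome were used. No source used here gives the cell filter, annotation or strand of counting. Whole UMIs were recovered from the smallest value of each cell, and 100.0% of 20140203 values were whole within 0.01.

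The members and lists were chosen with earlier results of these data known. UMIs were summed over the K cells of a library and scaled to CPM. Genes were compared at a mean of at least 10 CPM and 30 UMIs, with a pseudocount of 1 CPM, and called at 2-fold on the fold alone. All folds and ratios are on the log2(CPM + 1) scale. Matched levels are the CPM of other cells of the same next trio and library, weighted by K cell UMIs. The comparison with matched cells and the split into leading cells were added after seeing the data. No cell was removed.

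Named are the rule genes, Gm4665, the main protamine genes, the 20 genes of at least 50 CPM with the highest ratio to all other cells, the first 8 genes per direction with both hairpins, up to 6 members per list and the defensins and cystatins. Of the 20, 12 were raised over matched cells, and the other 8 were stage genes such as Klk1b9 and Arl9. Raised genes outside these rules were named after their values were seen. Of 22843 symbols, 95.7% were found in GENCODE M21. The steps were tested on simulated data. Tools were Python 3.11.15, numpy 2.4.6, scipy 1.17.1, pandas 2.3.3, scanpy 1.11.5 and matplotlib 3.10.9.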

Additional observations from a re-analysis of the deposited data

How the results depend on the processing

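No paired analysis was possible because each group holds 1 library. With 1 library per group, no difference between libraries can be set against a spread between mice, and the depth of 1060780 to 1957870 UMIs over the K cells of a library leaves genes below 10 CPM uncompared. The share of K cells in the control, hairpin 1 and hairpin 2 libraries was 4.65%, 2.37% and 2.30% where K had to stand at least 1 z unit above the next trio, and 6.77%, 5.48% and 5.18% with z-scores taken within libraries, where the control no longer stood apart from the hairpin libraries. The counts of genes higher and lower with both hairpins were 42 and 47 with TMM factors, 46 and 46 with median-of-ratios factors, 392 and 600 with no filter, 6 and 2 at 50 CPM or more, 18 and 14 with a pseudocount of 5 CPM, 139 and 17 as a mean over cells, 109 and 17 without the 3 leading cells, and 67 and 18 without the leading cell of each gene and library. Without the 3 leading cells, the log2 folds turned for Gadd45g (1.64 and 1.77), Gm14226 (0.075 and 0.95) and Cpe with hairpin 1 (0.15), and Gm14226 with hairpin 2 turned to 0.33 without the leading cell of each gene. Genes raised over matched cells numbered 184, with 5 lower, for K cells at least 1 z unit above the next trio, 64 with 329 lower against all other cells without matching, and 24 at 50 CPM or more. The cause of these shifts was not tested. For single genes and lists, 487 alternative values stayed within the spread or interval of the reported one, 57 moved and 6 turned.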
